A study of Mus musculus with 73 samples.

Results

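The cytosolic ribosomal protein genes are the genes that encode the proteins of the small (40S) and large (60S) subunits of the cytoplasmic ribosome. They were taken as every array feature that the probe table assigns to 1 gene symbol beginning with Rpl or Rps and a digit, with Rplp or with Rpsa, and the Rps6 kinase genes were left out. The rule found 30 genes on 31 features, of 6795 genes on 9596 features. Of the 30, 11 are 40S proteins, 12 are 60S proteins, 2 are P-stalk proteins of the 60S subunit (Rplp1 and Rplp2), 3 carry paralogue symbols (Rpl39l, Rpl7l1 and Rps4l) and 2 carry pseudogene symbols (Rpl10a-ps2 and Rps19-ps3). A cDNA spot of a pseudogene or close paralogue can also bind RNA of its parent gene, so these 5 are uncertain as to source. Another 14 features that the table assigns to a ribosomal protein together with other symbols were left out, and Rpsa, Rplp0, Rpl5 and Rpl11 were not analysed here.

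RNA was measured on 73 two-colour cDNA arrays. On 35 of them a tissue (Cy3) was hybridised against Stratagene universal reference RNA (Cy5). Prostate (4 normal, 5 tumor) and seminal vesicle (4 normal, 6 tumor) came from C57BL/6 mice, with wild-type mice for the normal tissue and TRAMP mice for the tumors, which carry the SV40 T/t-antigen under the prostate-active probasin promoter (PB). Mammary gland (4 normal, 4 tumor) and lung (4 normal, 4 tumor) came from FVB mice, with wild-type normal tissue and tumors of C3(1)/SV40 T/t-antigen and CC10/SV40 T/t-antigen mice. The sites thus form pairs by strain, and a difference across the pairs cannot be told apart from one of strain. The remaining 38 arrays paired RNA of a mammary tumor (Cy5) with RNA of wild-type mammary gland from the same strain (Cy3). These tumors were p53-/-;transplant (Balb/c, n = 5), p53fp/fp;WAP-cre (C57BL6/129sv, n = 4) and Brca1 Co/Co;MMTV-cre;p53 (C57BL6/129sv, n = 5), and, all from FVB mice, C3(1)/SV40 T/t-antigen (n = 5), MMTV-PyMT (n = 5), MMTV-ras (n = 5), MMTV-her2/neu (n = 5) and MMTV-myc (n = 4). WAP and MMTV are promoters active in the mammary epithelium. The labels do not say that arrays of a group came from separate animals, so p-values measure the spread between arrays.

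Ribosomal proteins are mostly made in equal amounts, and most join ribosomal RNA in the nucleolus. Their mRNAs are among the most abundant of a cell and carry a terminal oligopyrimidine (TOP) tract, a C followed by an unbroken run of C and T at the very start of the message, through which the mTOR pathway controls their translation. Transcription of these genes and of the ribosome assembly factors is known to rise with growth, and Myc is one of its known regulators. All values below are log2 ratios, in which a difference of 1 is a 2-fold difference. On the reference arrays they compare a tissue with the reference RNA, so levels are compared between tissues and never between genes.

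The start-site sequences were searched for such a run of C and T, which part of the genes held. RefSeq start sites (build GRCm38.p6) were given for 21 of the 30 genes, with 25 promoters in all. A C followed by at least 4 C or T, beginning within 5 bases of the start site on the strand of the gene, was present in 12 of the 21 genes and 13 of the 25 promoters, against 6027 of all 32851 promoters (18.3%). Each window below has 25 bases, 10 of them before the start base, and capitals mark the run. The first 6 genes hold it and recur in the results. The last 3, Rps13, Rpl39l and Rpl7l1, have no such run beginning within 5 bases of the start, and were chosen after it was seen that they had the lowest correlations with the other genes on the reference arrays. In Rpl39l a run of C and T begins further before the start base than these 5 bases.
Rps6 (chr4:86857353-86857377, minus strand): gaagtcgggCCTCTTTTTCgtgacg
Rpl35 (chr2:39005117-39005141, minus strand): ccgccCTTTCCTCTTTCTCTCgaac
Rpl13a (chr7:45128731-45128755, minus strand): cctgcgacaagaCCTCCTCCTTTCC
Rplp2 (chr7:141447641-141447665, plus strand): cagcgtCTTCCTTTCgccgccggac
Rps15a (chr7:118116133-118116157, minus strand): tttctgccatCTTCCCTCgccggtg
Rpl28 (chr7:4792955-4792979, plus strand): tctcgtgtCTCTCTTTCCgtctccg
Rps13 (chr7:116334176-116334200, minus strand): caaacgtcggtgagtggcgtcactt
Rpl39l (chr16:10170218-10170242, plus strand): aggcctttccggatttccggtggtc
Rpl7l1 (chr17:46782642-46782666, minus strand): gctgcgcaagcgcagtagctgaagc
A run is a match of letters, not a measured start, and its absence says only that no such letters begin within 5 bases of the listed start. The other 6 genes without it had mean correlations with the 40S and 60S genes across the reference arrays of 0.574 (Rps4x), 0.576 (Rpl6), 0.653 (Rpl13), 0.677 (Rps15), 0.685 (Rps3a1) and 0.725 (Rpl36a). On the direct arrays that of Rpl39l was 0.674.

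The 30 genes had a value on all 35 reference arrays. The mean of the 30 genes on an array lay below the reference RNA on every one of these arrays, and the normal tissues differed in it. Normal mammary gland was highest at -0.51 ± 0.285 (SD, n = 4), followed by seminal vesicle at -0.73 ± 0.195 (n = 4), lung at -1.23 ± 0.282 (n = 4) and prostate at -1.54 ± 0.178 (n = 4). Neighbours in this order overlapped, with arrays from -0.90 to -0.29 in mammary gland, -0.89 to -0.46 in seminal vesicle, -1.53 to -0.87 in lung and -1.65 to -1.27 in prostate. The ends of the order, mammary gland and prostate, did not overlap.

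Gene by gene, limma's F test over the 4 normal tissues passed for 30 of the 30 genes at an adjusted p under 0.05, which is the threshold throughout, against 79.4% of all genes. The median range between the highest and the lowest tissue was 1.10 for the ribosomal protein genes and 0.66 for all genes. The 6 smallest p-values were those of Rps26, Rps6, Rps19-ps3, Rps24, Rpl10a-ps2 and Rps15a. Rps26, a 40S protein that contacts the mRNA at the exit channel, had a range of 1.42 (adjusted p = 3.79e-08), and Rps6, the 40S protein phosphorylated by the S6 kinases, one of 1.27 (adjusted p = 1.02e-07). The normal Rps26 arrays read -2.42, -2.37, -2.28 and -1.82 in prostate, -1.91, -2.20, -2.12 and -1.73 in lung, -1.42, -0.63, -0.77 and -1.32 in mammary gland, and -0.89, -0.98, -0.67 and -0.66 in seminal vesicle. For this gene seminal vesicle, not mammary gland, had the highest mean, while prostate and lung overlapped.

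Between neighbouring normal tissues, compared after the values had been seen, fewer genes passed. Mammary gland exceeded seminal vesicle in 7 genes and was below it in Rps13 (-0.50), against 35.6% of all genes higher and 25.4% lower (61.0% together). Seminal vesicle exceeded lung in 17 genes and was below it in Rpl7l1 (-0.40), against 25.9% and 31.3% (57.2% together). Lung exceeded prostate in 8 genes and was below it in 0, against 22.6% and 17.9% (40.5% together). Of the genes higher, 17 of 30 is above the share of all genes in that direction, 8 of 30 close to it and 7 of 30 below it. With the array run, a run of adjacent array numbers in the labels, as a fixed factor the count of 17 was 3, and after quantile normalization it was 28. For mammary gland over seminal vesicle the count of 7 was 0 and 1 under these settings, and for lung over prostate 0 after quantile normalization or with the muscle covariate described below. The 8 genes of lung over prostate were 3 without prostate normal array 2 or lung normal array 4, 4 without prostate normal array 1 and 5 without prostate normal array 3.

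**Figure D1:**
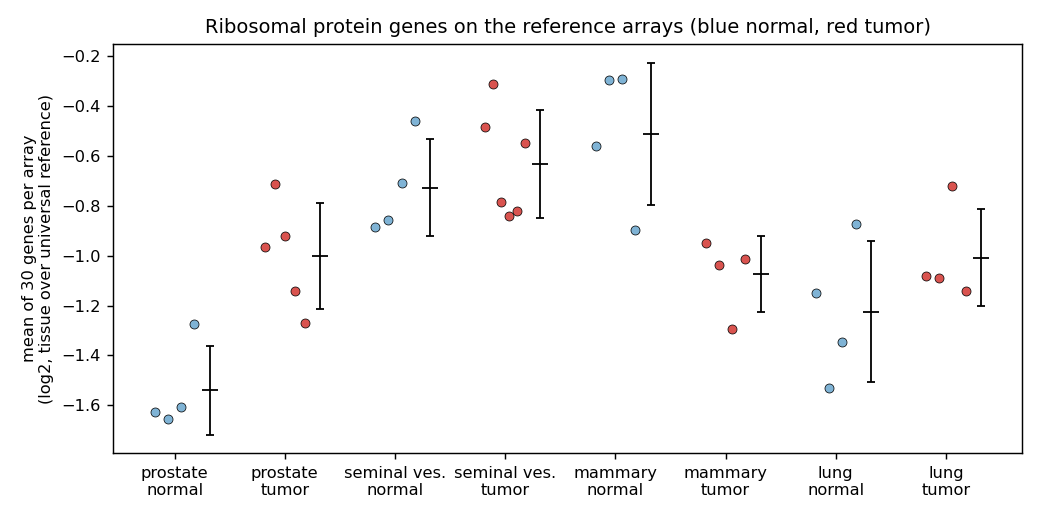
Mean log2 ratio of the 30 ribosomal protein genes on each of the 35 reference arrays (points), with the group mean and SD beside them, for normal (blue) and tumor (red) samples of 4 sites. Normal mammary gland lies highest (-0.51) and normal prostate lowest (-1.54), and the tumors of prostate, mammary gland and lung lie near -1.

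In prostate the ribosomal protein genes rose in the tumors. The mean of the 30 genes was -1.63, -1.65, -1.61 and -1.27 on the normal arrays and -0.96, -0.71, -0.92, -1.14 and -1.27 on the tumor arrays. Normal array 4 lay level with tumor array 5, and the other arrays of the 2 groups were apart. Single genes rose in 20 cases and fell in 1 of 30, against 29.2% of all genes higher and 32.2% lower (61.4% in either direction), and the median change was 0.51 against -0.03 for all genes. Both subunits took part, with 9 of the 11 40S genes and 9 of the 14 60S and P-stalk genes higher.

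Rps6 had the largest rise. It read -1.82, -1.81, -1.69 and -1.46 in normal prostate and -0.87, -0.29, -0.48, -0.71 and -0.86 in the tumors, with no overlap. The change was 1.05 ± 0.16 (SE, limma adjusted p = 6.17e-07). Rpl35, a 60S protein at the mouth of the peptide exit tunnel, read -1.54, -1.81, -1.65 and -1.51 in normal prostate and -0.20, -0.32, -0.52, -0.98 and -1.02 in the tumors. These groups did not overlap either, and the change was 1.02 ± 0.20 (limma adjusted p = 3.66e-05). Next in size were Rpl19 (1.01 ± 0.22, limma adjusted p = 0.00018), a 60S protein, and Rps15 (0.98 ± 0.19, limma adjusted p = 5.72e-05), a 40S protein near the decoding site.

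In 11 genes every tumor array lay above every normal array, against 24.9% of all genes: Rpl13a, Rpl19, Rpl21, Rpl35, Rpl6, Rpl7l1, Rpl8, Rps15, Rps19-ps3, Rps3a1 and Rps6. The genes that did not pass were Rps13, Rps29, Rps4l, Rpl10a-ps2, Rpl27a, Rpl35a, Rpl36a, Rpl39l and Rpl7. The rises of Rpl13, Rps14 and Rps4x missed the threshold when single arrays were left out. For Rpl13 (0.46) these were normal arrays 2 and 3 and tumor arrays 1, 2 and 3, for Rps14 (0.45) normal arrays 2 and 3 and tumor arrays 2 and 3, and for Rps4x (0.53) normal array 1 and tumor arrays 2 and 3. The direction of Rps4x also turned, to -0.19 with the muscle covariate and -0.05 within array run 1, both described below.

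The P-stalk genes went apart in prostate. Rplp1 and Rplp2 encode the acidic stalk proteins of the 60S subunit that recruit translation factors to the ribosome. Rplp2 rose by 0.66 ± 0.20 (limma adjusted p = 0.00505), from -1.84, -1.96, -1.77 and -1.31 in normal prostate to -1.06, -0.71, -0.99, -1.09 and -1.46 in the tumors, where 1 tumor array lies within the normal range. Rplp1 read -1.58, -1.48, -1.47 and -0.89 in normal prostate and -1.74, -1.45, -1.88, -2.07 and -2.31 in the tumors, a change of -0.53 ± 0.22 (limma adjusted p = 0.0391). Its groups overlap, and without normal array 4 the change was -0.38 (adjusted p = 0.175). Leaving out tumor array 3, 4 or 5 also ended the call, with adjusted p from 0.0543 to 0.114.

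Other changes in the same prostate samples ran along with these. The skeletal muscle markers, 13 genes, had a mean of 3.78 to 4.73 in normal prostate and -0.16 to 0.11 in the tumors, and 13 of 13 fell. The adipocyte markers also fell in 9 of 9 genes, 10 of 11 mitosis genes rose and 4 of 5 neuroendocrine genes rose. The 7 epithelial markers had a group mean of 1.56 in normal prostate and -0.89 in the tumors. Fewer cells of a type and less RNA per cell cannot be told apart in such bulk samples. With the muscle mean as a covariate 1 of the 30 genes passed, with a median change of 0.24. Its part in the result was not otherwise tested, since no prostate tumor array reached the muscle level of a normal one. The share of all genes passing in fits with this covariate is not given in this report. The lower counts under it therefore cannot be called particular to the ribosomal protein genes. The other 4 tumor arrays than number 5 belong to array run 6, which holds no normal prostate array, and normal array 4 belongs to run 2. Outside run 1, array run and tumor therefore cannot be told apart in prostate. Array run 1 holds normal arrays 1 to 3 and 1 tumor array, number 5, and there the median difference was 0.40. A test in it, which takes the spread of that single tumor array to be that of the other groups, called 7 genes higher and 1 lower and 48.3% of all genes, and it compares 1 tumor array with normal tissue, not the tumors as a group. With the array run as a fixed factor 9 genes were higher, and after quantile normalization 13. The shares of all genes passing under these settings are not given either, so the lower counts cannot be called particular to these genes.

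In mammary gland the ribosomal protein genes fell in the tumors. The mean of the 30 genes was -0.56, -0.30, -0.29 and -0.90 on the normal arrays and -0.95, -1.04, -1.29 and -1.01 on the tumor arrays, with no overlap. Single genes fell in 18 cases and rose in 0 of 30, against 20.1% of all genes lower and 16.6% higher (36.7% in either direction), and the median change was -0.63 against -0.02 for all genes. Among them were 8 of the 11 40S genes and 8 of the 14 60S and P-stalk genes. In 14 genes every tumor array lay below every normal array, against 17.9% of all genes.

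Here Rplp1 moved with the others and had the largest fall. It read -0.84, -0.26, -0.18 and -1.03 in normal gland and -1.48, -1.49, -1.91 and -1.76 in the tumors, a change of -1.08 ± 0.24 (limma adjusted p = 0.000444). Rplp2 read -0.66, 0.01, -0.05 and -0.51 in normal gland and -0.90, -1.25, -1.32 and -1.11 in the tumors, a change of -0.85 ± 0.21 (limma adjusted p = 0.00171). Neither gene overlapped between the groups. Rps19-ps3, which matches the 40S protein gene Rps19 by name, changed by -1.05 ± 0.19 (limma adjusted p = 3.26e-05).

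Rpl13a, a 60S protein also known as an interferon-responsive repressor of translation, read -0.30, 0.33, 0.16 and -0.60 in normal gland and -0.83, -0.95, -1.48 and -1.11 in the tumors. Its change was -0.99 ± 0.20 (limma adjusted p = 0.000226), and Rpl27a, another 60S protein, followed with -0.89 ± 0.20 (limma adjusted p = 0.00065). Rps6 read -0.36, -0.30, -0.26 and -0.78 in normal gland and -0.85, -1.08, -1.15 and -1.10 in the tumors, a change of -0.62 ± 0.16 (limma adjusted p = 0.00316). So the gene with the largest rise in prostate tumors was among those that fell in mammary tumors, without overlap of its arrays in either site.

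The 12 genes that did not pass in mammary gland were Rps13, Rps3a1, Rps4x, Rps4l, Rpl6, Rpl7, Rpl7l1, Rpl13, Rpl21, Rpl35a, Rpl36a and Rpl39l, with changes from -0.44 to 0.00. The calls of Rpl19 (-0.62) and Rpl8 (-0.64) were lost without normal array 2 or 3 or tumor array 2 or 3, and that of Rpl8 also without normal array 4. The count of 18 stayed between 16 and 24 over the 17 alternatives tried, and was 22 within array run 1. Adipocyte markers had a mean of 3.41 to 3.86 in normal gland and 0.45 to 2.01 in the tumors, with 9 of 9 lower. Lymphocyte markers fell too, in 5 of 5 B cell and 5 of 7 T cell genes, 11 of 11 mitosis genes rose, and the part of these in the result was not tested. Skeletal muscle markers passed in 0 of 13 genes by limma, with 1 at an unadjusted p under 0.05, and with their mean as a covariate 19 ribosomal protein genes fell. Normal array 4, with the highest muscle mean (3.43), had the lowest mean of the 30 genes among the normal arrays (-0.90). It is also the only normal mammary array of array run 2. Normal array 1, with the lowest muscle mean (-0.20), had the next lowest mean of the 30 genes (-0.56).

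**Figure D2:**
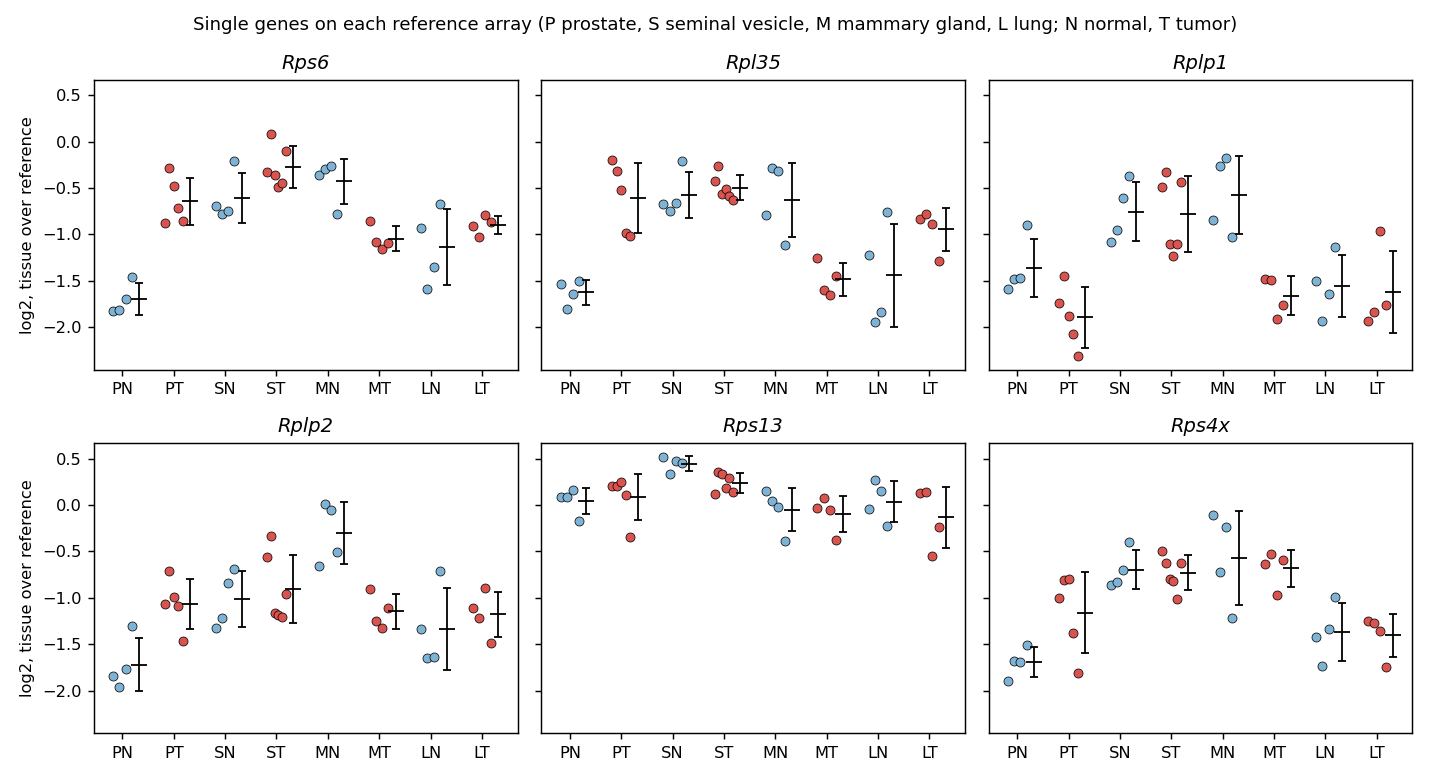
Log2 ratio of Rps6, Rpl35, Rplp1, Rplp2, Rps13 and Rps4x on each reference array, with group mean and SD, by site (P prostate, S seminal vesicle, M mammary gland, L lung) and type (N normal, T tumor). Rps6 and Rpl35 tumor arrays lie above normal ones in prostate and below them in mammary gland, while Rplp1 has its lowest mean in prostate tumors (-1.89).

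In seminal vesicle 2 of 30 genes rose and 0 fell, against 23.3% of all genes higher and 20.2% lower (43.5% in either direction). The mean of the 30 genes was -0.89, -0.86, -0.71 and -0.46 on normal arrays, and -0.84, -0.67 and -0.31 at the lowest, median and highest of the 6 tumor arrays. The 2 groups overlapped, and no gene had every tumor array on 1 side of the normal ones, against 16.7% of all genes with every tumor array above and 16.5% below. The 2 genes were Rps15a, a 40S protein, with 0.43 ± 0.18 (limma adjusted p = 0.0475), and Rps3a1, a 40S protein next to the mRNA exit, with 0.40 ± 0.14 (limma adjusted p = 0.0252). Rps3a1 read -1.01, -1.15, -1.08 and -0.84 on normal arrays and from -0.85 to -0.34 on tumor arrays, which meet at 1 array on each side. The count was 0 without normal array 2 or tumor array 2, 1 without normal array 1 or 3 or tumor array 1 or 6, and 4 without normal array 4. At an unadjusted p under 0.05 there were 6 genes. The normal arrays all belong to 1 array run and the tumor arrays to 3 others, so array run and tumor cannot be told apart in this site.

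In lung 5 of 30 genes rose and 0 fell, a share close to the 16.2% of all genes higher, with 20.4% of all genes lower and 36.5% in either direction. The mean of the 30 genes was -1.15, -1.53, -1.35 and -0.87 on normal arrays and -1.08, -1.09, -0.72 and -1.14 on tumor arrays, and the groups overlapped. The 5 were Rpl19 (0.63), Rpl28 (0.63), Rpl8 (0.57), Rps3a1 (0.57) and Rpl6 (0.50). For Rpl28, a 60S protein, the arrays read -1.55, -1.84, -1.74 and -1.18 in normal lung and -1.15, -1.12, -0.31 and -1.20 in the tumors, a change of 0.63 ± 0.21 (limma adjusted p = 0.0191), and they overlapped by 1 array on each side. No gene had all tumor arrays on 1 side of the normal ones, against 15.5% above and 18.9% below among all genes. The count was 1 without normal array 2 or 3, 2 without tumor array 3 and 8 without normal array 4.

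The changes therefore pointed different ways by site, and the difference itself was tested. The F test of the tumor change over the 4 sites passed in 24 of 30 genes, a share close to the 74.1% of all genes. Prostate minus mammary gland was positive in 24 genes and negative in 0, against 25.5% and 22.3% of all genes (47.8% together), with a median of 1.10. The difference was 1.88 ± 0.28 for Rpl35 (limma adjusted p = 2.12e-06), 1.82 ± 0.28 for Rps15 (3.11e-06, limma adjusted p), 1.81 ± 0.26 for Rps19-ps3 (8.42e-07, limma adjusted p) and 1.67 ± 0.23 for Rps6 (3.56e-07, limma adjusted p). Rpl13a and Rps26, at 1.66 and 1.57, complete the 6 genes of smallest p in the F test. With the muscle covariate 12 genes passed.

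Prostate and seminal vesicle share strain and transgene. Their changes differed in 10 genes, each with the larger change in prostate, against 22.6% of all genes in that direction and 24.1% in the other (46.7% together). They were Rpl19, Rpl21, Rpl35, Rpl6, Rpl8, Rps15, Rps19-ps3, Rps26, Rps29 and Rps6, led by Rps15 with 0.98 ± 0.27 (limma adjusted p = 0.00333). The count of 10 was 5 without prostate normal array 1 or 2, prostate tumor array 2 or seminal vesicle tumor array 3. It was 6 without prostate normal array 3, seminal vesicle normal array 3 or 4, or seminal vesicle tumor array 4 or 5. It was 0 with the muscle covariate or with the array run fixed.

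Set side by side, the tumors of prostate, mammary gland and lung had means close to each other. The mean of the 30 genes was -1.0 ± 0.213 (SD, n = 5) in prostate, -1.07 ± 0.151 (n = 4) in mammary gland and -1.01 ± 0.193 (n = 4) in lung, with overlapping arrays. Seminal vesicle tumors lay higher at -0.63 ± 0.217 (n = 6). Among the prostate, mammary and lung tumors the F test passed in 6 of 30 genes, against 58.6% of all genes, and the median range was 0.37 against 0.42 for all genes. The 6 were Rpl35, Rpl35a, Rpl39l, Rps15, Rps4l and Rps4x. Quantile normalization raised the count to 21, and it was 10 without prostate tumor array 5 and 3 with the array run fixed. With the seminal vesicle tumors included 22 genes passed, against 76.6%, with a median range of 0.62 against 0.56. Both comparisons of tumors were chosen after the means had been seen.

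**Figure D3:**
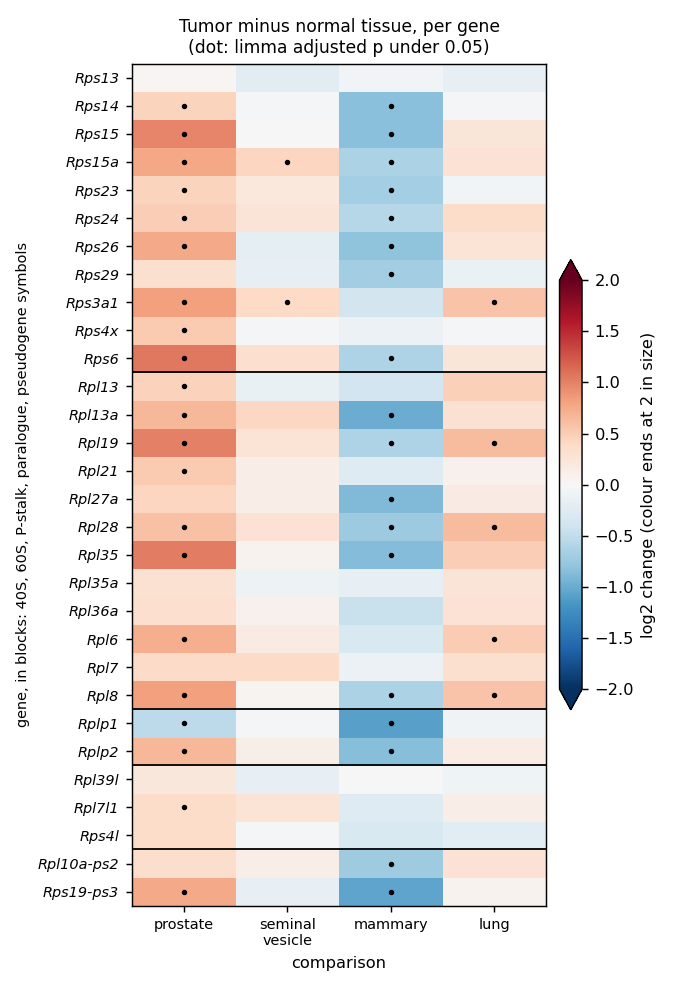
Log2 change from normal to tumor of each of the 30 genes (rows, in blocks by subunit and symbol type) in the 4 sites (columns), with a dot where limma's adjusted p is under 0.05. Prostate has 20 genes with a rise and mammary gland 18 with a fall, while seminal vesicle has 2 calls and lung 5.

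Within groups most of the genes varied together. After each group's mean was removed, the median correlation over the 300 pairs of the 25 40S, 60S and P-stalk genes was 0.69 across the 35 reference arrays, and 0.695 over 253 pairs across the 38 direct arrays. These are descriptions, and the genes of an array share its hybridisation and labelling. Rps13, a 40S protein, stood apart on the reference arrays, with a mean correlation of -0.116 to these genes. Rpl7l1 (0.221) and Rpl39l (0.339) were also low, while the other members lay between 0.544 and 0.743.

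Rps13 also kept its level between tissues more than the others. It read 0.09, 0.09, 0.16 and -0.17 in normal prostate, 0.15, 0.05, -0.02 and -0.38 in normal mammary gland, -0.05, 0.27, 0.15 and -0.22 in normal lung, and 0.52, 0.33, 0.48 and 0.46 in normal seminal vesicle. Its range over the normal tissues, 0.50, was the smallest of the 30 genes, and it still passed the F test (limma adjusted p = 0.00899). Its tumor changes were 0.04, -0.21, -0.05 and -0.17 in prostate, seminal vesicle, mammary gland and lung, and it passed in 0 of these sites and in 0 of the 8 direct models, with a smallest adjusted p of 0.0606 in the direct C3(1) tumors. The difference between the prostate and mammary changes was 0.09 ± 0.20 (limma adjusted p = 0.73). A spot with weak or mixed signal cannot be told apart from a steady mRNA here, since the files used hold ratios without intensities.

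The paralogues differed in how far they followed their partners. Rps4l, a relative of the X-linked 40S gene Rps4x that RefSeq lists as a pseudogene, had deviations from the group means that correlated with those of Rps4x at 0.91 over 35 reference arrays and 0.94 over 35 direct arrays. Shared hybridisation of the 2 spots cannot be told apart from shared expression. Rpl7l1, a nucleolar relative of the 60S gene Rpl7, followed Rpl7 weakly, at 0.09 over 35 reference arrays and 0.21 over 37 direct arrays. Rpl7l1 rose in prostate tumors by 0.36 ± 0.12 (limma adjusted p = 0.0122), while Rpl7 read 0.39 ± 0.19 (limma adjusted p = 0.0714). In direct C3(1) tumors they went opposite ways, with Rpl7l1 at 0.62 ± 0.16 (limma adjusted p = 0.00194) and Rpl7 at -0.60 ± 0.23 (limma adjusted p = 0.0334). Rpl39l, a form of Rpl39 known for its expression in testis, passed in 0 of 4 sites, with changes from -0.17 to 0.22.

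On the direct arrays 28 of the genes could be tested, because Rpl13a and Rps24 hold no value there, and 10 genes had a value on every array. These arrays were centred on their median. A test against 0 leaves out the spread of normal gland, and no array has swapped dyes, so a dye effect on a gene cannot be told apart from its change. In each model 8 or 9 of the 9 adipocyte and 9 to 13 of the 13 muscle markers fell, with group means from -3.62 to -1.92 and from -4.17 to -2.22. Their part in the results below was not tested.

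The ribosomal protein genes rose most often in 2 models. In MMTV-her2/neu tumors the mean of the genes was 0.71, 0.94, 0.75, 0.76 and 0.81, and in p53fp/fp;WAP-cre tumors 0.74, 1.10, 0.85 and 0.66. All of these arrays lay above the array median. The p53fp/fp arrays all belong to the same array run, which no other model shares, so model and array run cannot be told apart there. In each of these 2 models 17 of 28 genes rose and 0 fell, against 25.8% of all genes in either direction in her2/neu (10.8% lower) and 29.2% in p53fp/fp (17.3% higher and 11.9% lower). Every array was above 0 for 26 genes in her2/neu tumors and for 24 in p53fp/fp tumors, against 25.6% and 23.0% of all genes. The count was 11 without her2/neu array 2. In p53fp/fp it was 9 without array 2 and 10 without array 3.

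The other models had fewer calls. MMTV-ras tumors had 11 genes higher and 0 lower (10.2% and 8.96% of all genes), MMTV-myc tumors 9 and 0 (12.6% and 10.3%, 22.9% together), MMTV-PyMT tumors 6 and 0 (18.5% and 11.6%) and p53-/- transplants 5 and 0 (10.2% and 10.9%). The PyMT share is near its background. The median changes were 0.50 in ras, 0.57 in myc, 0.23 in PyMT and 0.31 in p53-/- tumors. The myc count was 1 without array 2 or array 4, whose means of 0.67 and 1.08 are above those of the others, both 0.15. The ras count was 7 without array 1 and 6 without array 4, that of PyMT 3 without array 3 and 1 without array 5, and that of p53-/- tumors 3 without array 3 or 5.

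**Figure D4:**
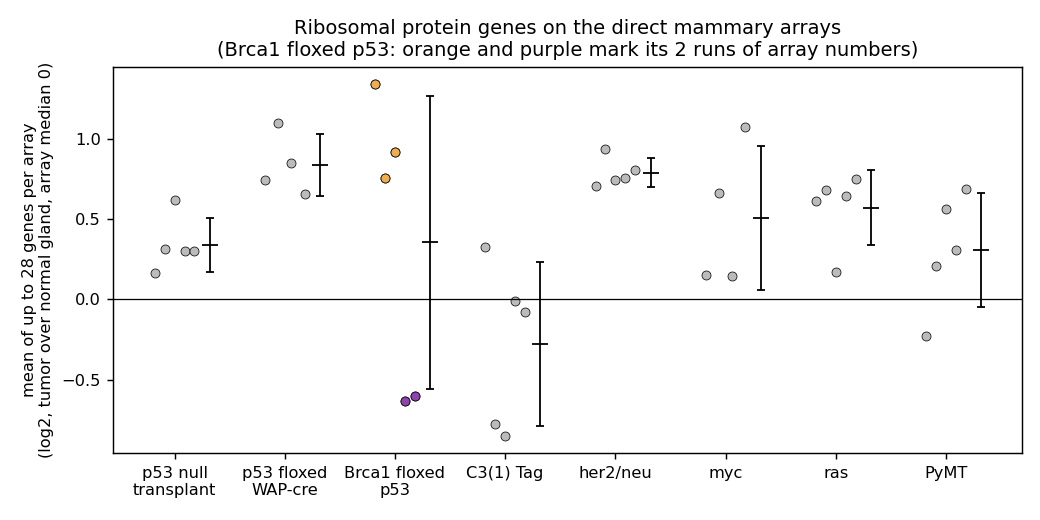
Mean log2 ratio, tumor over normal gland with the array median at 0, of up to 28 ribosomal protein genes on each of the 38 direct arrays (points), with the model mean and SD. The her2/neu arrays lie between 0.71 and 0.94, the C3(1) arrays between -0.85 and 0.33, and the Brca1 arrays split by array run (orange and purple).

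Rps14, a 40S protein of the platform that is known for its role in erythroid development, passed in 7 of the 8 models. Its her2/neu arrays read 1.95, 2.11, 2.14, 1.13 and 1.86, a mean of 1.84 ± 0.23 (SE, limma adjusted p = 2.82e-07). The mean was 1.52 in p53fp/fp, 1.41 in Brca1, 1.34 in ras, 1.03 in myc, 0.99 in PyMT and 0.81 in p53-/- tumors. In C3(1) tumors the arrays read 0.47, -0.11, -0.36, 0.52 and 0.13, on both sides of 0. The call was lost in myc without array 2 (0.77, adjusted p = 0.0631) and in p53-/- without array 3 (0.70, adjusted p = 0.058).

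Further large rises were those of Rpl8, Rps4x and Rpl28. Rpl8, a 60S protein near the peptidyl transferase centre, read 1.61, 1.95, 2.03 and 1.27 in p53fp/fp tumors, a mean of 1.72 ± 0.26 (limma adjusted p = 3.79e-06). It also rose in ras (1.41), Brca1 (1.18), p53-/- (1.13) and her2/neu tumors (0.97). Rps4x read 1.38, 1.73, 1.36, 1.43 and 1.55 in her2/neu tumors, a mean of 1.49 ± 0.31 (limma adjusted p = 0.000502). It rose in p53fp/fp (1.38), ras (1.32) and myc tumors (1.16), and Rps4l beside it read 1.23, 0.94 and 0.74 there, the last without passing. Rpl28 rose in her2/neu (1.38), myc (1.13), p53fp/fp (1.12), ras (1.04) and PyMT tumors (0.82). In myc tumors the call of Rpl28 was lost without array 4 and that of Rps4x without array 2 or 4. In ras tumors that of Rps4x was lost without array 4 and that of Rps4l without array 1 or 4, and in PyMT tumors that of Rpl28 without array 3 or 5. On Brca1 arrays 4 and 5 alone, which form an array run of their own, Rpl8 read -0.04.

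Among the other leading genes Rpl10a-ps2 rose in 7 models, by 1.34 in her2/neu, 1.08 in ras, 0.99 in p53fp/fp, 0.87 in Brca1, 0.75 in myc, 0.69 in PyMT and 0.68 in p53-/- tumors. Rps19-ps3 rose in the same 7, from 0.63 in PyMT to 1.56 in p53fp/fp tumors. Rpl27a rose in p53fp/fp (1.26), her2/neu (1.02) and p53-/- tumors (0.72). Rpl35 rose in ras (1.15) and p53fp/fp tumors (1.06), and Rpl6 in p53fp/fp (1.18), her2/neu (1.00), Brca1 (0.96), myc (0.80) and ras tumors (0.64). In PyMT tumors Rps26 (0.64) and Rpl7l1 (0.49) passed as well. Many of these calls were lost without 1 array. In p53fp/fp tumors these were Rpl35 without array 2 or 3 and Rpl10a-ps2 without array 2. In p53-/- tumors they were Rpl10a-ps2 without array 1, 3, 4 or 5 and Rpl27a without array 2 or 5. In myc tumors they were Rpl10a-ps2 and Rps19-ps3 without array 1, 2 or 4 and Rpl6 without array 2 or 4, and in ras tumors Rpl6 without array 1, 2, 4 or 5. In PyMT tumors they were Rpl10a-ps2 without any 1 of the 5 arrays, Rps19-ps3 without array 3 or 5, Rps26 without array 5 and Rpl7l1 without array 2, 4 or 5. In Brca1 tumors Rpl10a-ps2 and Rps19-ps3 were lost without array 1, and in the array run of arrays 4 and 5 they read -0.19 and -0.18.

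The C3(1)/SV40 T/t-antigen tumors, the same model as the mammary tumors of the reference arrays, had 1 gene higher and 5 lower, against 22.1% and 19.8% of all genes (41.8% together). The share of falls is near its background, and that of rises is below it. Their means of the genes were 0.33, -0.78, -0.85, -0.01 and -0.08. The falls were those of Rps23 (-0.81), Rplp2 (-0.66), Rplp1 (-0.63), Rpl39l (-0.61) and Rpl7 (-0.60), and Rpl7l1 was the rise. Rps23, a 40S protein of the decoding centre, read 0.03, -1.39, -1.38, -0.42 and -0.89 (mean -0.81 ± 0.23, limma adjusted p = 0.00463), and array 1 was the 1 array not below 0. The 5 falls became 10 without array 1, 1 without array 2 and 3 without array 3 or 5. Values as deposited, without centring, gave 0 falls. In the mammary tumors of the reference arrays most of the 30 genes fell. Of the 6 genes called here 3 fell there, Rplp1 (-1.08), Rplp2 (-0.85) and Rps23 (-0.68). The others did not pass there, with 0.00 for Rpl39l, -0.12 for Rpl7 and -0.26, of opposite sign, for Rpl7l1. Rps26, which fell there, read 0.39 here without passing.

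Against the other FVB models the C3(1) tumors were lower. Set against the mean of her2/neu, myc, ras and PyMT, 18 of 28 genes were lower and 0 higher, against 4.99% and 6.88% of all genes, with a median difference of -0.94. The largest difference was that of Rpl35, -1.40 ± 0.33 (limma adjusted p = 0.00493). Values as deposited gave 10 genes, and the count was 8 without C3(1) array 2 or array 3. This comparison was added after the values had been seen.

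The myc model was compared with the mean of her2/neu, ras and PyMT, which share its strain and promoter but none of its array runs. By limma 0 of 28 genes passed, against 0.0173% of all genes (1 of 5768), and 1 gene had an unadjusted p under 0.05. The median difference was 0.01, and the spread of the myc arrays, from 0.15 to 1.08 in their means, is wider than that of the her2/neu arrays.

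The Brca1 Co/Co;MMTV-cre;p53 tumors split by array run, so the group result rests on which arrays enter. The means of the genes were 1.34, 0.76 and 0.92 on arrays 1 to 3, which form run 13, and -0.63 and -0.60 on arrays 4 and 5, which form run 14. Over the 5 arrays 6 genes were higher and 1 lower, against 24.5% and 22.3% of all genes (46.8% together). The share higher is near its background, and that lower is below it. Within run 13, 22 of 27 genes were higher and 1 lower, with a median of 1.00 and 48.9% of all genes called. Within run 14, 0 of 28 were higher and 8 lower, with a median of -0.66 and 26.9% of all genes called. The muscle marker means were -4.56, -4.14 and -3.96 in run 13 and -4.08 and -4.12 in run 14, those of the adipocyte markers -3.78, -3.86 and -4.00 against -2.99 and -3.49, and their part in the split was not tested. Rpl35 read 2.26, 1.03 and 1.24 in run 13 and -0.36 and -1.54 in run 14. The count was 3 without array 1, 15 without array 4 and 16 without array 5. Run and tumor cannot be told apart here.

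Rpl13, a 60S protein, was low in both runs. It read -2.11, -1.65 and -1.05 in run 13 and -3.04 and -3.55 in run 14, and its mean of -2.28 ± 0.22 (limma adjusted p = 5.59e-10) was the largest change of a ribosomal protein gene in the direct models. The other models lay between -0.65 in myc and 0.91 in p53fp/fp tumors, where it passed. Rps14 was above 0 on all 5 Brca1 arrays (2.08, 1.49, 2.36, 0.40 and 0.74). It was the 1 gene of the 28 with this property, as Rpl13 was the 1 gene below 0 on all, against 16.3% and 18.7% of all genes.

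The F test over the 8 models passed in 15 of 28 genes, against 41.6% of all genes, with a median range of 1.36 against 0.76. The smallest p was that of Rpl13 (range 3.19, limma adjusted p = 5.91e-07), and the next by p had ranges of 1.91 (Rps19-ps3), 1.72 (Rpl8), 1.78 (Rpl27a), 1.71 (Rps14) and 1.82 (Rpl35). The count was 8 without C3(1) array 2 and 7 without C3(1) array 3. The p53-/-, p53fp/fp, Brca1 and myc arrays share no array run with any other model. A difference of these from other models cannot be told apart from one of array run. Across strains, model and strain cannot be told apart either.

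**Figure D5:**
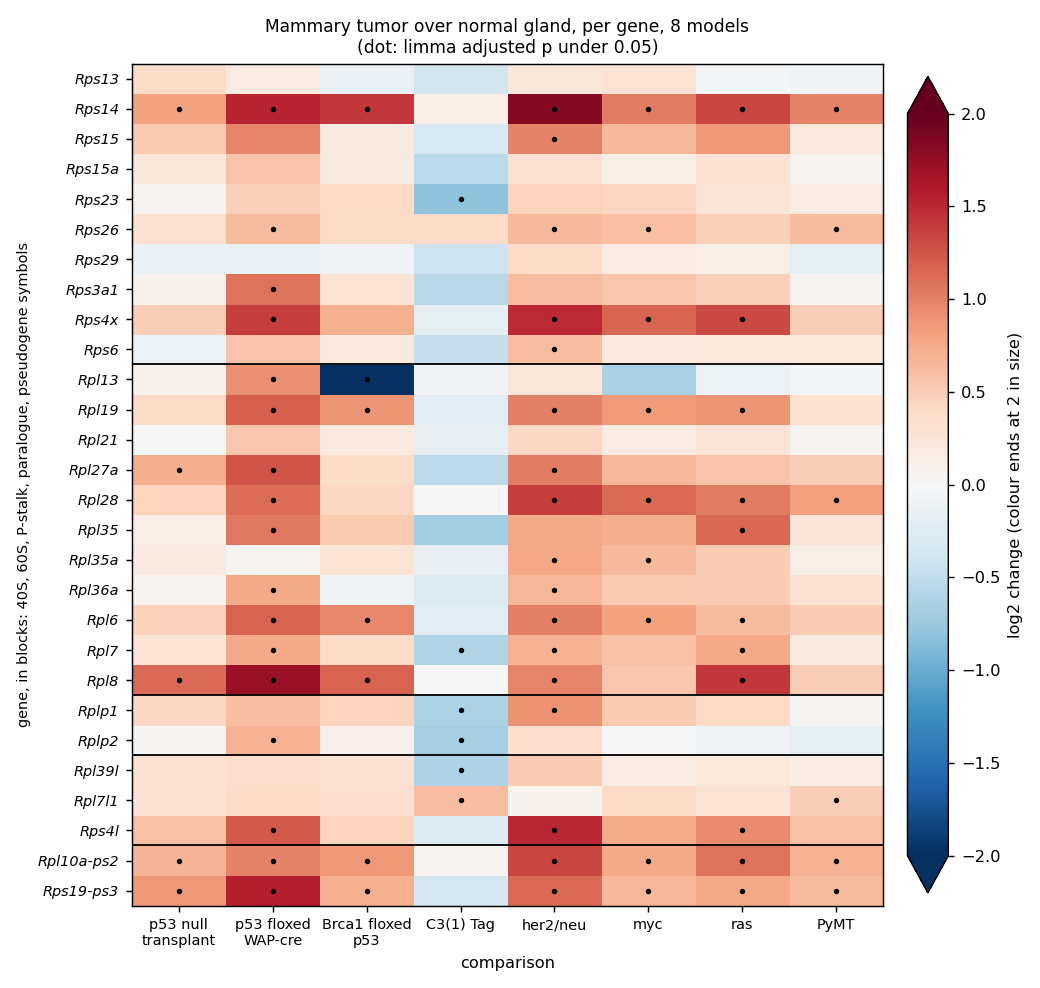
Mean log2 ratio of tumor over normal gland for 28 ribosomal protein genes (rows, in blocks by subunit and symbol type) in the 8 mammary tumor models (columns), with a dot where limma's adjusted p is under 0.05. The her2/neu and p53fp/fp columns hold 17 rises each. The C3(1) column holds 5 falls, a share near that of all genes, and Rpl13 stands out in the Brca1 column at -2.28.

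Genes of the wider pathway were counted from lists of known members. Ribosome biogenesis factors, which process ribosomal RNA and assemble the subunits in the nucleolus, were higher above the share of all genes at 3 of the 4 sites. In prostate 22 of 40 (55.0%) were higher and 6 lower, against 29.2% and 32.2% of all genes, with Npm1 (nucleophosmin) at 1.59, Rrp1 at 1.29 and Nop53 at 1.19. In seminal vesicle 13 (32.5%) were higher and 5 lower, against 23.3% and 20.2%, with Rrp1 at 0.73. In lung 16 of 40 were higher and 1 lower, against 16.2% and 20.4%, with Nop58 at 1.52 and Tcof1, a factor of ribosomal RNA transcription, at 1.05. In mammary gland 7 (17.5%) were higher, close to the 16.6% of all genes, and 3 lower, with Nop58 at 0.81 and Polr1e, a subunit of RNA polymerase I, at -0.38. There the median of this list was 0.02, beside -0.63 for the ribosomal protein genes.

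Of the other mRNAs known to carry a TOP tract 10 were measured, so their shares are coarse. In prostate, where 29.2% of all genes were higher, 6 rose and 0 fell, with Hnrnpa1 at 1.81, Nap1l1 at 1.79 and Eif3l at 0.70. In mammary gland, where 20.1% of all genes were lower, 2 rose and 6 fell, with Eef1g, a subunit of the elongation factor that loads transfer RNA, at -0.91, Eif3f at -0.80 and Nap1l1 at 0.54. Seminal vesicle and lung had 3 rises each and 0 falls, against 23.3% and 16.2% of all genes higher. Mitochondrial ribosomal proteins, encoded by separate genes for the ribosome of the mitochondrion, were lower in 16 of 32 cases and higher in 5 in prostate, against 32.2% and 29.2% of all genes. In mammary gland 0 were higher and 11 (34.4%) lower, with Mrpl39 at -1.02, against 20.1% of all genes lower. In seminal vesicle 2 were higher and 12 (37.5%) lower, against 20.2% lower, and in lung 10 (31.2%) were higher and 1 lower, against 16.2% higher.

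The same lists on the direct arrays were set beside the ribosomal protein genes. In C3(1) tumors 15 of 36 biogenesis factors (41.7%) were higher and 2 lower, against 22.1% and 19.8% of all genes, with Nop58 at 1.19 and Ubtf, a factor of RNA polymerase I, at 0.76, while 1 of 27 mitochondrial ribosomal proteins was higher and 17 (63.0%) lower. In her2/neu tumors 5 biogenesis factors (13.9%) were higher, near the share of all genes (866 of 5768), and 2 lower, with Fbl (fibrillarin) at 1.35, where 17 of 28 ribosomal protein genes rose. In Brca1 tumors 20 biogenesis factors (55.6%) were higher and 0 lower, against 24.5% of all genes higher, and in p53fp/fp tumors 15 (41.7%) were higher and 0 lower, against 17.3%. The Brca1 count pools both array runs. There the means of these factors were 0.771, 0.417 and 0.546 on the arrays of run 13 and 0.145 and 0.249 on those of run 14.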

How the data were processed

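Each feature of an array has 1 ratio in the authors' deposited table, read here as log2. The labels name the dyes; base and direction were settled from the values. On the log2 scale, 2475 features pass the interaction rule of the series text, which states 2638, against 3553 for natural logarithms. In normal lung 7 of 7 lung epithelium markers were higher than elsewhere, and in normal mammary gland 9 of 9 adipocyte and 5 of 6 milk markers. Ratios were therefore read as tissue over reference. On direct arrays the ratio was taken as tumor over normal gland, with 9 of 9 adipocyte genes and 1 of 9 mitosis genes below 0 in C3(1) tumors. Image analysis and normalization are not given in the sources used here, and depth does not apply to ratios; the number of arrays limits the precision.

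Symbols were updated through gene IDs (7395 features matched, 91 kept their symbol), and features of a gene were averaged. Reference arrays were used as deposited and direct arrays set to median 0. Each was fitted over its 8 groups in R (4.3.3) by lmFit and eBayes of limma (3.58.1), at 3 or more values per group, with Benjamini-Hochberg adjustment over all genes at 0.05. The scripts were tested on simulated data. Array runs are stretches of array numbers with gaps of at most 15. The members, lists and tests were chosen with earlier results of these data known. Genes named were, per comparison, up to 4 passing rises and falls, the 6 smallest p of each F test, paralogues with their partners, the P-stalk genes and Rps6; up to 3 examples by p per wider list. Rps13 and Rpl13 details were chosen after their values were seen. Other marker lists were also counted: in prostate tumors 4 of 5 neuroendocrine genes rose, 7 of 7 epithelial genes fell, 4 of 7 lung epithelium genes fell and 1 of 6 milk genes fell. Same-numbered arrays did not deviate together (correlations from -0.244 to 0.224), so numbers were not taken as pairs. No 2 arrays were identical.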

Additional observations from a re-analysis of the deposited data

Results flagged for a closer look

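Of 173 groups of 4 to 6 arrays examined for the mean of the genes and for 10 single genes, 18 held 1 array far from the others. The rule is set to flag about 1 in 20 independent groups of normally distributed values. Most of these genes vary together on the same arrays, and some were chosen after their values were seen. No excess over that rate can therefore be read from the count. Of the mean over the ribosomal protein genes, ras array 3 (0.17, others 0.62 to 0.75), lung tumor array 3 (-0.72, others -1.14 to -1.08) and prostate normal array 4 (-1.27, others -1.65 to -1.61) stood apart.

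Single genes stood apart on some of the same arrays. On seminal vesicle normal array 4, Rps6 (-0.21, others -0.78 to -0.70) and Rpl35 (-0.21, others -0.75 to -0.66) were high. Rpl19 was high on lung tumor array 3 (-0.29, others -1.01 to -0.95) and on p53fp/fp array 3 (2.03, others 0.86 to 1.04). Rps15 was high on p53-/- array 3 (3.33, others -0.71 to 0.13), on p53fp/fp array 2 (1.21, others 0.88 to 0.89) and on lung normal array 4 (-0.63, others -1.55 to -1.44). Rplp1 was high on prostate normal array 4 (-0.89, others -1.58 to -1.47), and Rplp2 low on p53fp/fp array 1 (0.08, others 0.87 to 0.96). Rps13 was high on her2/neu array 4 (1.04, others -0.05 to 0.10) and low on prostate tumor array 5 (-0.34, others 0.11 to 0.25). Rpl13 was low on lung tumor array 4 (-1.92, others -1.35 to -1.32). Rps14 was low on her2/neu array 4 (1.13, others 1.86 to 2.14) and ras array 5 (0.27, others 1.53 to 1.71), and high on mammary tumor array 1 (-0.64, others -1.21 to -1.11).

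The tumor change differed between sites by limma's test of the difference in 24 of 30 genes for prostate against mammary gland, and in 10 for prostate against seminal vesicle. Of all genes 47.8% and 46.7% passed in either direction, and 10 of 30 is below the latter share. All 10 had the larger change in prostate, against 22.6% of all genes in that direction.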

How the results depend on the processing

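The counts of genes past the threshold in mammary tumors (16 to 24), in the F test over sites (21 to 27) and over normal tissues (29 to 30) stayed within 1.5 times under every alternative tried. So did the comparison of myc with the other models, at 0. The other counts moved by more under the settings named below, prostate minus mammary gland under the muscle covariate alone and tumor tissues with the array run fixed alone, and the cause was not tested. Without centring, the median of all genes on the direct arrays lies at 0.24 in Brca1, 0.36 in C3(1), 0.21 in myc and 0.18 in ras tumors. Files hold ratios only, so weak signal could not be assessed. The share of all genes passing under an alternative is not given here or above, except where printed beside a count. A count that moved therefore cannot be called particular to the ribosomal protein genes.

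Quantile normalization gave 13 rises in prostate (20 as reported), 0 in seminal vesicle (2), 21 genes among prostate, mammary and lung tumors (6), 1 in normal mammary over seminal vesicle (7), 28 in seminal vesicle over lung (17) and 0 in lung over prostate (8). In direct tumors it gave 16 in p53-/- (5), 2 falls in C3(1) (5), 15 rises in myc (9), 20 in ras (11) and 10 in PyMT (6). With the array run fixed, prostate had 9, seminal vesicle 0, prostate minus seminal vesicle 0 (10), tumor tissues 8 (22), prostate, mammary and lung tumors 3, mammary over seminal vesicle 0 and seminal vesicle over lung 3. As a random block it gave 0 in seminal vesicle, 5 in prostate minus seminal vesicle and 3 in p53-/- tumors. The muscle covariate gave 1 in prostate, 12 in prostate minus mammary gland (24), 0 in prostate minus seminal vesicle and 0 in lung over prostate; Rps4x reversed in prostate (-0.19), and Rpl21 (-0.01) and Rpl6 (-0.03) in prostate minus seminal vesicle. Array medians set to 0 gave 1 in seminal vesicle. Fits within array runs were chosen after seeing the data; within run 1, prostate had 7 (Rps4x reversed to -0.05) and lung 3 (5).

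Values as deposited gave 16 rises in Brca1 (6), 0 falls in C3(1), 19 rises in myc and 10 falls for C3(1) against the other FVB models (18). Genes with a value on every array, 10 of the 28, gave 3 in p53-/-, 6 in p53fp/fp (17), 2 in Brca1, 3 falls in C3(1), 6 in her2/neu (17), 2 in myc, 3 in ras, 1 in PyMT, 6 in the F test over models (15) and 7 for C3(1) against the others. These counts are out of 10 genes and those in brackets out of 28, so a lower count alone is not a weaker result. In Brca1, run 13 gave 22 and run 14 gave 0, where Rpl10a-ps2 (-0.19), Rpl19 (-0.37), Rpl8 (-0.04) and Rps19-ps3 (-0.18) reversed.

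Leaving out 1 array at a time gave 17 to 26 in prostate, 0 to 4 in seminal vesicle, 16 to 21 in mammary gland, 1 to 8 in lung, 23 to 27 in the F test over sites, 23 to 26 in prostate minus mammary gland and 5 to 13 in prostate minus seminal vesicle. It gave 30 to 30 over normal tissues, 20 to 23 over tumor tissues, 5 to 10 over prostate, mammary and lung tumors, 5 to 10 in mammary over seminal vesicle, 12 to 24 in seminal vesicle over lung and 3 to 11 in lung over prostate. In direct tumors it gave 3 to 4 in p53-/-, 9 to 14 in p53fp/fp, 3 to 16 in Brca1, 1 to 10 in C3(1), 11 to 14 in her2/neu, 1 to 9 in myc, 6 to 12 in ras, 1 to 5 in PyMT, 7 to 19 over models, 0 to 0 for myc and 8 to 20 for C3(1) against the other models.

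With the replicate number as a block, seminal vesicle had 0 rises, prostate 23, mammary gland 18 falls, lung 5, the F test over sites 26, prostate minus mammary gland 25 and prostate minus seminal vesicle 8. The numbers mark no known pairing.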
